A study of Mus musculus with 9 samples.

Results

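The cleavage and polyadenylation factors described here are 10 genes, Cpsf1, Cpsf2, Cpsf3, Wdr33, Cstf1, Cstf2, Cstf3, Nudt21, Pcf11 and Clp1, out of 24318 genes in the expression tables. They were taken by name, as subunits of the complexes that form the 3′ ends of mRNA, and each was read in both tables against the scramble columns of its own table. All 10 had a row in both tables and all 10 were high enough to be tested.

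RNA-seq was carried out on 9 cultures of N2A cells, a mouse neuroblastoma line, with 3 biological replicates of each of 3 conditions. The scramble cultures, labelled WT, received a negative control siRNA, the siEXOSC3 cultures an siRNA against Exosc3, and the siDDX1 cultures an siRNA against Ddx1. All 9 carry the treatment label Untreated and all came from the same line, so that the replicates are separate plates of one genetic background and not separate animals. EXOSC3 is a structural cap subunit of the RNA exosome, the complex that degrades and trims RNA from its 3′ end, and DDX1 is a DEAD-box RNA helicase. Each siRNA lowers its target without removing it. The study compared the transcripts altered by each depletion. FPKM, fragment counts scaled for transcript length and library size, is a level per gene and carries no information on which poly(A) site was used.

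Most mRNA precursors are cut downstream of a hexamer with the sequence AAUAAA or a close variant, and a poly(A) tail is then added to the new end. The cleavage and polyadenylation specificity factor (CPSF) binds this hexamer and makes the cut, the cleavage stimulation factor (CstF) binds U-rich or GU-rich sequence downstream of it, and the cleavage factors CFIm and CFIIm complete the assembly. Cleavage frees the transcript and precedes the termination of RNA polymerase II further downstream, and the choice between alternative sites sets the length of the 3′ untranslated region.

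The mRNAs of these factors are themselves made by the machinery they form. The last 30 bases of the longest-reaching annotated transcript are shown for Clp1, Cstf1 and Nudt21, the 3 members with the lowest adjusted p in siEXOSC3 cells, and for Cstf2, the member called in siDDX1 cells, read from NCBIM37, the assembly behind mm9, with GENCODE vM1 transcripts. Capitals mark the poly(A) signal hexamer, either the canonical AATAAA or its most common variant ATTAAA, on the strand of the transcript.
Clp1: taagtatacAATAAAtttaaccttttcttc
Cstf1: tctaaAATAAAttttttttatataacagtg
Nudt21: gtttctcATTAAActctgaaaagtcttaga
Cstf2: ctgtcgtggattcAATAAAtattttaaaag
They lie at chr2:84562261-84562290 on the minus strand, chr2:172207919-172207948 on the plus strand, chr8:96543303-96543332 on the minus strand and chrX:130621329-130621358 on the plus strand. All 4 windows are the annotated end of a protein-coding transcript. Nudt21 carries the variant hexamer ATTAAA, and the other 3 carry AATAAA. Between 11 and 19 bases follow the hexamer in these 4 transcripts. Over 22372 protein-coding genes, taking 1 such end for each, 47.4% held AATAAA in a window of this length and 58.3% held either hexamer. Pcf11, Cstf3 and Wdr33 also hold AATAAA, whereas the annotated ends of Cpsf1, Cpsf2 and Cpsf3 hold neither hexamer in this window, which says nothing about a signal further upstream or an end that was not annotated.

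The targeted transcripts were read first as a check of the labels. Exosc3 stood at 15.5% of its scramble mean in siEXOSC3 cells and Ddx1 at 24.4% in siDDX1 cells, with no overlap between libraries. The FPKM tables do not hold the number of reads. Relative depth was inferred from the most common FPKM ratio among genes with a mean under 0.1 FPKM. It lay between 0.827 and 1.204 of scramble replicate 1, with 18.75 to 22.9% of those genes near that ratio. Replicates correlated at 0.983 to 0.996 over genes. Of 11 markers of a sympathoadrenal neuroblast 10 were expressed, with summed scramble levels of 495 to 533 FPKM. In siEXOSC3 cells 7 of these markers increased and 0 decreased, against 16.7 and 15.7% of all genes tested. Their sum was 828 to 847 FPKM. In siDDX1 cells 2 increased, Gap43 and Mapt, and 0 decreased, against 5.61 and 5.03% of all genes. The sum there was 511 to 549 FPKM, against 491 to 527 FPKM for scramble in that table. Gata3, Isl1 and Chga lay below scramble in all 3 siDDX1 libraries without being called (limma adjusted p = 0.0722, 0.313 and 0.0850). Of 14 markers of immune, endothelial, fibroblast, epithelial and glial cells, the sum was 8.10 to 9.59 FPKM in scramble and 10.0 to 14.1 FPKM in siEXOSC3 cells, with 4 of them at 0 in all 6 libraries. The sum was 8.04 to 9.48 FPKM in scramble and 9.45 to 10.3 FPKM in the siDDX1 table, with 1 at 0, and the endothelial marker Pecam1 was the highest in both. Pecam1 rose in siEXOSC3 cells from 4.13 ± 0.343 to 7.28 ± 1.58 FPKM (SD, n = 3, log2 fold change 0.67, limma adjusted p = 0.00827), and of the 14 only Pecam1 and Mbp were high enough to be tested. In such bulk RNA, fewer cells with a transcript and less of it per cell cannot be told apart, and the part of these shifts in the values of the cleavage factors was not tested.

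In scramble cells the 10 transcripts spanned 13.5 to 79.6 FPKM. Nudt21 was the highest at 79.6 ± 2.05 FPKM (SD, n = 3), followed by Cstf3 at 57.2 ± 6.86, Cstf2 at 48.9 ± 1.47 and Cpsf3 at 48.3 ± 1.92 (SD, n = 3 each). Wdr33 at 33.6 ± 1.40, Cpsf1 at 31.4 ± 1.22, Cpsf2 at 30.1 ± 0.829 and Pcf11 at 28.1 ± 2.80 FPKM formed a middle group (SD, n = 3 each). Cstf1 at 20.2 ± 0.625 and Clp1 at 13.5 ± 0.618 FPKM were the lowest (SD, n = 3 each). Nudt21 was separated from Cstf3, Cpsf3 from Wdr33, Pcf11 from Cstf1 and Cstf1 from Clp1 in the range of their scramble libraries, and the other neighbours in this order overlapped. These levels are per length and depend on the transcript models used for counting. Subunits of a single complex were not at a single level, as CstF held both the second highest and the second lowest transcript.

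In siEXOSC3 cells 4 of the 10 transcripts fell and none rose. Clp1 fell to 60.4% of its scramble level, Cstf1 to 75.0%, Nudt21 to 81.3% and Cpsf2 to 81.7%, so that the 4 came from CFIIm, CstF, CFIm and CPSF in turn. Changes were tested with limma, a linear model fitted to log2(FPKM + 1) of every gene with a mean of at least 1 FPKM, with p-values adjusted by Benjamini-Hochberg over all of them. The log2 fold change on this scale was negative in all 10 members, from -0.68 for Clp1 to -0.01 for Cpsf3, with a median of -0.25 against -0.01 for all 11242 genes tested. The count of 4 decreased members (limma adjusted p under 0.05) stands against 15.7% of all genes tested that decreased. With a mean FPKM of at least 5 the count was also 4, and 18.7% of the genes tested then decreased. The count of 0 increased members stands against 16.7% of all genes, and at an unadjusted p under 0.05 the limma counts were 6 decreased and 0 increased, against 23.4 and 22.0% of all genes. In 8 members all 3 siEXOSC3 libraries lay below all 3 scramble libraries, which was the case for 25.9% of genes tested, and 0 members lay entirely above, which was the case for 23.8%. The count of 4 depends on single libraries. It was 2, Clp1 and Cstf1, without scramble replicate 1, 2 or 3 or siEXOSC3 replicate 1, when the share of all genes that decreased was 5.17, 8.27, 7.15 and 7.73%.

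**Figure D1:**
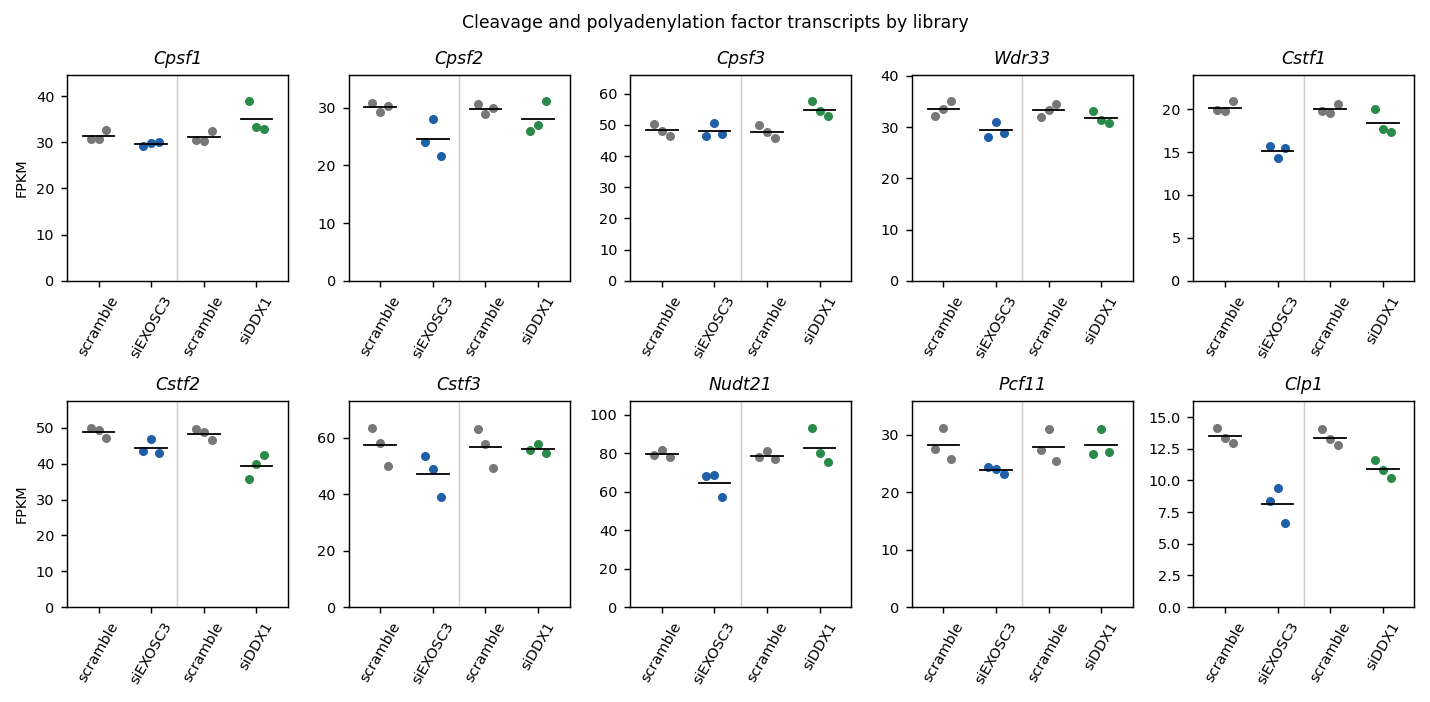
FPKM of the 10 cleavage and polyadenylation factors in each library, with the siEXOSC3 table left and the siDDX1 table right of the grey line in every panel. Points are libraries in the order of replicates 1 to 3, horizontal bars are group means, and the same 3 scramble cultures appear in both tables. Clp1 ranges from 6.64 to 9.41 FPKM in siEXOSC3 cells and from 12.9 to 14.2 FPKM in scramble, and Cstf2 is the only one of these 10 called in siDDX1 cells.

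Within CPSF, the transcript of Cpsf2, a subunit that pairs with the endonuclease, was at 24.2, 28.1 and 21.7 FPKM in siEXOSC3 replicates 1, 2 and 3 and at 30.8, 29.2 and 30.4 FPKM in scramble. All 3 depleted values were below the scramble values, with replicate 2 closest to them. Cpsf2 fell by a log2 fold change of -0.29 (SE, the standard error of the fit, 0.0932, limma adjusted p = 0.0451). This call is near the threshold. The limma adjusted p was 0.140, 0.0896 and 0.121 without scramble replicates 1, 2 and 3, 0.124 without siEXOSC3 replicate 1 and 0.0783 without replicate 3. It was 0.0797 with no filter on low FPKM, 0.0557 after quantile normalization, 0.0556 after centring on the median and 0.0587 with no intensity trend. Cpsf3, the endonuclease itself, stood at 99.6% of scramble, with values of 46.6, 50.5 and 47.2 FPKM against 50.3, 48.1 and 46.5 FPKM that overlap throughout (limma adjusted p = 0.951). Cpsf1, the large scaffold subunit, was at 29.1, 29.8 and 29.98 FPKM against 30.7, 30.6 and 32.8 FPKM. The groups do not overlap, but the log2 fold change was only -0.08 (limma adjusted p = 0.345). Wdr33, which contacts the hexamer, was at 28.1, 30.9 and 28.9 FPKM against 32.2, 33.5 and 35.0 FPKM. Its groups do not overlap either, and the log2 fold change of -0.19 missed the threshold (SE 0.0674, limma adjusted p = 0.0612), although it passed without siEXOSC3 replicate 2 (log2 fold change -0.23, limma adjusted p = 0.0275).

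Within CstF, Cstf1, the WD-repeat subunit, was at 15.7, 14.3 and 15.5 FPKM in siEXOSC3 replicates 1, 2 and 3 and at 19.9, 19.7 and 20.9 FPKM in scramble. The groups were well separated and each was tight. Cstf1 fell by a log2 fold change of -0.39 (SE 0.0681, limma adjusted p = 0.00520), and the call held without each library in turn, with a highest limma adjusted p of 0.0285. Cstf2, the RNA-binding subunit, was at 43.7, 46.8 and 43.0 FPKM against 50.1, 49.3 and 47.2 FPKM. Its groups do not overlap, by a margin of less than 1 FPKM, with a log2 fold change of -0.13 (SE 0.0636, limma adjusted p = 0.139). Cstf3, the scaffold that holds the other CstF subunits together, was at 53.5, 49.1 and 39.0 FPKM against 63.5, 58.3 and 49.9 FPKM. Its scramble libraries were the most spread of all 10 members, and the groups overlap. Its log2 fold change of -0.28 was not called (SE 0.127, limma adjusted p = 0.123).

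Of the cleavage factors, Nudt21 and Clp1 fell in siEXOSC3 cells and Pcf11 was not called. Nudt21 encodes the small subunit of CFIm, which binds UGUA upstream of the cut and is known for favouring distal poly(A) sites. It was at 68.2, 68.8 and 57.1 FPKM in siEXOSC3 replicates 1, 2 and 3 and at 78.9, 81.8 and 77.9 FPKM in scramble. All 3 depleted libraries were below scramble, and replicate 3 was lowest. Nudt21 fell by a log2 fold change of -0.30 (SE 0.0822, limma adjusted p = 0.0260). The limma adjusted p was 0.0839, 0.0871 and 0.0690 without scramble replicates 1, 2 and 3 and 0.0502 without siEXOSC3 replicate 1. Clp1, the RNA kinase subunit of CFIIm that is also found with the tRNA splicing endonuclease, was at 8.40, 9.41 and 6.64 FPKM against 14.2, 13.4 and 12.9 FPKM. All 3 depleted libraries were below scramble, and among the members this was the largest change on the log2 scale. Clp1 fell by a log2 fold change of -0.68 (SE 0.114, limma adjusted p = 0.00462), and the call held without each library in turn, with log2 fold changes from -0.77 to -0.55 and a highest limma adjusted p of 0.0274. Pcf11, the CFIIm subunit that binds the C-terminal domain of RNA polymerase II, was at 24.4, 24.0 and 23.1 FPKM against 27.5, 31.2 and 25.7 FPKM. The groups do not overlap, and the log2 fold change of -0.23 missed the threshold (SE 0.0811, limma adjusted p = 0.0620). For a single gene with 3 libraries against 3, the two-sided exact permutation test cannot go below p = 0.1, its value where the groups do not overlap.

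**Figure D2:**
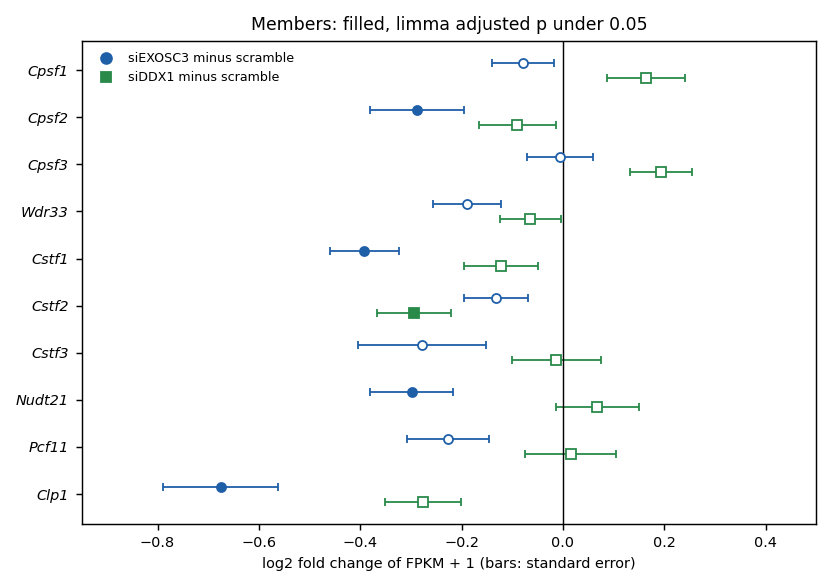
Log2 fold change of FPKM + 1 for each of the 10 members in siEXOSC3 cells (blue circles) and siDDX1 cells (green squares), with bars for the standard error of the limma fit. Filled symbols passed a limma adjusted p of 0.05, which 4 circles and 1 square did, and all 10 circles lie below 0 while the squares lie on both sides.

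Within single siEXOSC3 libraries nearly all members were below their scramble mean. The median of the 10 members stood below the scramble mean by a log2 difference of -0.21, -0.16 and -0.32 in siEXOSC3 replicates 1, 2 and 3, where the median of all genes tested was -0.01, -0.01 and -0.02. In these libraries 10, 9 and 10 of the 10 members were below their scramble mean. The exception in replicate 2 was Cpsf3, at 50.5 FPKM. In siDDX1 replicates 1, 2 and 3 the median of the members was -0.02, -0.03 and -0.05, with 6, 5 and 7 members below the scramble mean. The called members had many other genes with a like pattern over libraries. Over the 6 libraries of the siEXOSC3 table, Clp1 was most like Cct3 (Pearson r = 0.9995), Nudt21 most like Mis18a (r = 0.999), Cpsf2 most like Ltv1 (r = 0.999) and Cstf1 most like Wdfy3 (r = 0.995). Between 617 and 1827 of 11241 genes reached r above 0.9 with these 4 members. Such values describe 6 points that share 2 groups.

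**Figure D3:**
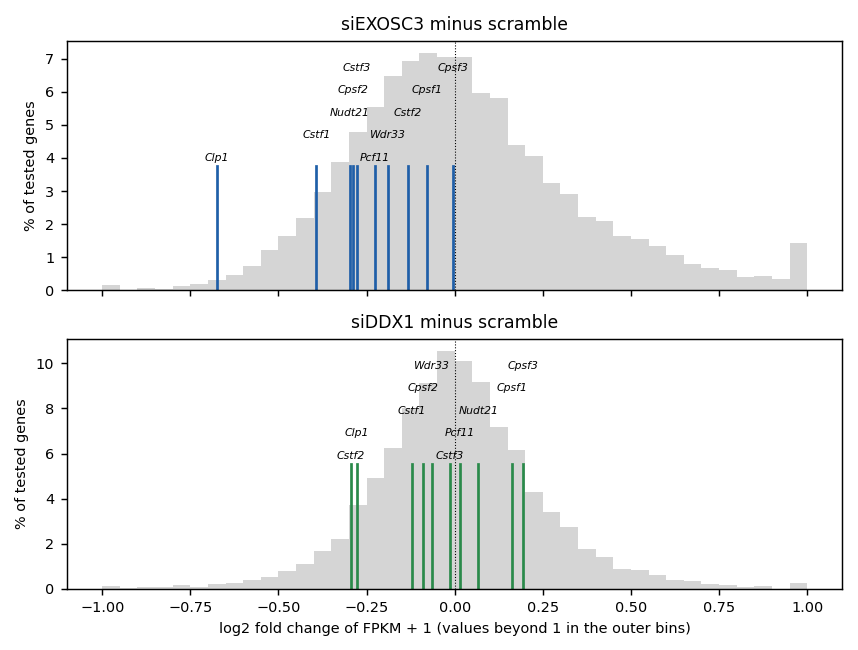
Histograms of the log2 fold change of all genes tested in siEXOSC3 cells (top) and siDDX1 cells (bottom), as a percentage of genes in each bin, with a coloured line for each of the 10 members. In siEXOSC3 cells the members run from -0.68 to -0.01, all left of 0, and in siDDX1 cells from -0.29 to 0.19 around the centre of the distribution.

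In siDDX1 cells 1 of the 10 transcripts fell, Cstf2, to 81.3% of scramble, and none rose. The log2 fold change was negative in 6 members and positive in 4, from -0.29 for Cstf2 to 0.19 for Cpsf3, with a median of -0.04 against -5.87e-04 for all 11104 genes tested. Of all genes tested 5.03% decreased and 5.61% increased, against 1 and 0 of the 10 members (limma adjusted p under 0.05). At an unadjusted p under 0.05 the limma counts were 2 decreased and 1 increased, against 15.0 and 15.1% of all genes. In 2 members, Cstf2 and Clp1, all siDDX1 libraries lay below all scramble libraries, against 17.8% of genes tested. In 2 members, Cpsf1 and Cpsf3, they lay above, against 17.0%. These shares of members lie near those of all genes.

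Cstf2 was at 35.8, 39.8 and 42.5 FPKM in siDDX1 replicates 1, 2 and 3 and at 49.7, 48.9 and 46.7 FPKM in scramble. The groups do not overlap, with replicate 1 lowest. Cstf2 fell by a log2 fold change of -0.29 (SE 0.0731, limma adjusted p = 0.0412), and the call depends on single libraries. The limma adjusted p was 0.154, 0.111 and 0.109 without scramble replicates 1, 2 and 3 and 0.0982 and 0.109 without siDDX1 replicates 1 and 2. It was 0.0676 with no filter on low FPKM and 0.0602 with no intensity trend. In this table Cstf2 was most like Etohi1 over the 6 libraries (Pearson r = 0.9996), with 815 of 11103 genes above 0.9. Clp1 was at 11.6, 10.9 and 10.2 FPKM against 14.1, 13.3 and 12.8 FPKM. All 3 siDDX1 libraries were below scramble, and the log2 fold change of -0.28 just missed the threshold (SE 0.0744, limma adjusted p = 0.0509). It passed with a mean FPKM of at least 5 (limma adjusted p = 0.0464) and without siDDX1 replicate 3 (limma adjusted p = 0.0353).

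No CPSF subunit among the members passed limma in siDDX1 cells, with 0 decreased and 1 increased at an unadjusted p under 0.05, where 15.0 and 15.1% of all genes stood. Cpsf3 was at 57.6, 54.4 and 52.7 FPKM against 49.9, 47.7 and 46.0 FPKM in scramble. All depleted libraries were above scramble, and the log2 fold change of 0.19 missed the threshold (SE 0.0614, limma adjusted p = 0.0781) but passed without siDDX1 replicate 3 (limma adjusted p = 0.0232). Cpsf1 was at 38.9, 33.3 and 32.9 FPKM against 30.5, 30.4 and 32.4 FPKM, with replicate 1 set apart from the other two. Its log2 fold change of 0.16 was not called (SE 0.0767, limma adjusted p = 0.191). Cpsf2 was at 26.0, 27.1 and 31.1 FPKM against 30.6, 29.0 and 30.002 FPKM, and Wdr33 at 33.0, 31.4 and 30.8 FPKM against 31.9, 33.2 and 34.6 FPKM. Both overlap with scramble, with log2 fold changes of -0.09 and -0.06 (limma adjusted p = 0.460 and 0.504).

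The remaining 4 members also overlapped with scramble in siDDX1 cells. Cstf1, which fell in siEXOSC3 cells, was at 20.1, 17.7 and 17.3 FPKM against 19.8, 19.6 and 20.7 FPKM, with a log2 fold change of -0.12 (limma adjusted p = 0.294). Nudt21, which also fell there, was at 93.3, 80.0 and 75.5 FPKM against 78.3, 81.2 and 77.0 FPKM, with replicate 1 above and replicate 3 below every scramble library. Its log2 fold change was 0.07 (limma adjusted p = 0.618), and it was -0.02 without siDDX1 replicate 1. Cstf3 stood at 55.5, 57.6 and 54.7 FPKM against 63.0, 57.8 and 49.3 FPKM, and Pcf11 at 26.6, 30.9 and 26.9 FPKM against 27.3, 31.0 and 25.4 FPKM. Their log2 fold changes were -0.01 and 0.01 (limma adjusted p = 0.938 and 0.929). Both depletions were measured against the same scramble cultures, and the difference between them was not tested.

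Cstf2 has a paralog, Cstf2t, an intronless gene whose product can take its place in CstF, and closely related sequences may share reads. Cstf2t was at 26.7 ± 1.51 FPKM in scramble and 27.0 ± 2.54 FPKM in siEXOSC3 cells, and at 26.4 ± 1.45 and 26.5 ± 3.93 FPKM in the siDDX1 table (SD, n = 3 each). Its log2 fold changes of 0.01 and -0.0047 were not called, and both change sign when single libraries are left out (limma adjusted p = 0.918 and 0.979). The log2 ratio of Cstf2 to Cstf2t within a library was 0.58, 0.66 and 0.44 in siDDX1 replicates 1, 2 and 3 and 0.87, 0.95 and 0.73 in scramble. All siDDX1 libraries were lower, by 0.29 on the log2 scale (two-sided exact permutation test, p = 0.1, the lowest it can give here). In siEXOSC3 cells the ratio was 0.70, 0.64 and 0.78, with a mean difference of -0.15 and overlapping groups (two-sided exact permutation test, p = 0.2).

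**Figure D4:**
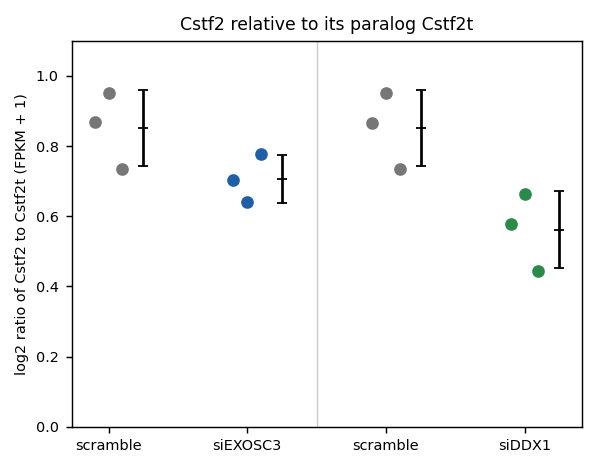
Log2 ratio of Cstf2 to Cstf2t, each as FPKM + 1, in each library of the siEXOSC3 table (left) and the siDDX1 table (right), with bars for the mean and SD of 3 libraries. The siDDX1 libraries, at 0.44 to 0.66, sit below all scramble libraries, at 0.73 to 0.95, and the siEXOSC3 libraries overlap with scramble.

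The promoters are shown for the 3 members that fell in siEXOSC3 cells with the lowest adjusted p, as the windows from 250 bases before to 50 bases after the gene start in RefSeq on GRCm38.p6. The GC box GGGCGG, the ETS core CCGGAA, the CCAAT box and the TATA box TATAAA were searched on both strands, and capitals mark a match on either strand.
Clp1: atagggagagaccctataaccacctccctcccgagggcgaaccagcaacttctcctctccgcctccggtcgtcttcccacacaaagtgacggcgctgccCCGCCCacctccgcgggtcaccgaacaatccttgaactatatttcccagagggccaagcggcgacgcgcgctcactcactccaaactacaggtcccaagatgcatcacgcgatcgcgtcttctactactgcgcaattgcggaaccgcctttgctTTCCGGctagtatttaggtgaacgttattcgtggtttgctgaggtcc
Cstf1: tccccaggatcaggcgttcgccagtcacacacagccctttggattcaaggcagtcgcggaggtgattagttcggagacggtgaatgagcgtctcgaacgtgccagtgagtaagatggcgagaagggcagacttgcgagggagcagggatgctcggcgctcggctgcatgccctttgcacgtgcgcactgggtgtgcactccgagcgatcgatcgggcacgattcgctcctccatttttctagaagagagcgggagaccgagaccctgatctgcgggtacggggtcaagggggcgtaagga
Nudt21: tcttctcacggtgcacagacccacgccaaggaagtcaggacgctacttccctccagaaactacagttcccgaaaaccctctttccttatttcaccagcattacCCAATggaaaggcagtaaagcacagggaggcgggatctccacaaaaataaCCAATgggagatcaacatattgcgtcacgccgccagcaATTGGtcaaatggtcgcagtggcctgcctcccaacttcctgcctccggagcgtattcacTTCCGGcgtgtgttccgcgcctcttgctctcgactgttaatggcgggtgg
On GRCm38.p6 the windows lie at chr2:84727238-84727537 on the minus strand, chr2:172370753-172371052 on the plus strand and chr8:94036990-94037289 on the minus strand. Clp1 holds 1 GC box and 1 ETS core, Nudt21 holds 3 CCAAT boxes and 1 ETS core, and Cstf1 holds none of the 4. Of the 10 members 8 matched a window. The GC box occurred in 4 of the 8, the ETS core in 4, the CCAAT box in 3 and the TATA box in 0, against 35.7, 14.9, 37.4 and 13.6% of all 32851 windows. The 8 windows held 17 to 32 CpG dinucleotides, against a median of 7 over all windows. These letter matches are a description of the windows. None of the 4 motifs was in all of the members that fell. Clp1 and Nudt21 share the ETS core, and Cpsf2, like Cstf1, holds none of the 4.

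The other genes of 3′ end formation were read from 4 lists of 28 genes, of which 27 were tested. In siEXOSC3 cells 8 of the 27 decreased and 0 increased by limma adjusted p, against 15.7 and 16.7% of all genes tested, and 11 and 0 did by unadjusted p, against 23.4 and 22.0%. For these 27 genes the median log2 fold change was -0.16. Read list by list, the decreased counts were 3 of 13, 3 of 6, 1 of 4 and 1 of 4, and whether a list differs from all genes was not tested. Of 13 further core factors 3 fell. These were Cpsf4, a zinc finger subunit of CPSF, with a log2 fold change of -0.40 (limma adjusted p = 0.0174), Cpsf7, a large subunit of CFIm that pairs with Nudt21, at -0.38 (limma adjusted p = 0.00395), and Rbbp6, a ubiquitin ligase needed for cleavage, at -0.42 (limma adjusted p = 0.00518). Cpsf7 was at 21.1, 21.5 and 21.0 FPKM against 27.5, 28.9 and 27.3 FPKM, and Rbbp6 at 39.1, 41.4 and 39.3 FPKM against 53.2, 57.9 and 49.9 FPKM. Neither overlaps with scramble, and both kept their call without each library. The call of Cpsf4 was lost without any scramble library or siEXOSC3 replicate 1, with limma adjusted p between 0.0530 and 0.0648. Of 6 transcription termination factors 3 fell. They were Scaf4 and Scaf8, RNA polymerase II binding proteins that prevent early termination, at log2 fold changes of -0.34 and -0.37 (limma adjusted p = 0.00891 and 0.0112), and Rprd2 at -0.40 (limma adjusted p = 0.0199). Rprd2 lost its call without scramble replicate 1 or 3, with limma adjusted p of 0.0742 and 0.0750.

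Of the 4 histone 3′ end factors tested 1 fell in siEXOSC3 cells, Casp8ap2 (FLASH), with a log2 fold change of -0.33 (limma adjusted p = 0.0422). Of the 4 subunits of the tRNA splicing endonuclease, the complex that Clp1 joins, 1 fell, Tsen15, at -0.32 (limma adjusted p = 0.0401). Both calls were lost without scramble replicates 1 and 3 and siEXOSC3 replicates 1 and 3, that of Casp8ap2 also without scramble replicate 2, and the limma adjusted p then lay between 0.0572 and 0.144. They were also lost with no filter on low FPKM (limma adjusted p = 0.0835 and 0.0771), with no intensity trend (limma adjusted p = 0.0521 and 0.0537), and for Casp8ap2 after quantile normalization (limma adjusted p = 0.0598). In siDDX1 cells 2 of the 27 genes decreased and 0 increased (limma, with 4 and 1 at an unadjusted p under 0.05, against 15.0 and 15.1% of all genes), and their median log2 fold change was -0.0047. The 2 called genes are a share near the 5.03% of all genes that decreased. The called genes were Slbp and Casp8ap2. Slbp, the stem-loop binding protein of replication-dependent histone mRNA, was at 31.5, 32.2 and 33.2 FPKM against 43.0, 42.2 and 39.6 FPKM, with no overlap and a log2 fold change of -0.35 (limma adjusted p = 0.0128). The limma adjusted p was 0.0757 without scramble replicate 1 and 0.0532 without siDDX1 replicate 2. Casp8ap2 was at 10.6, 11.5 and 15.1 FPKM against 17.1, 16.7 and 17.4 FPKM, and its log2 fold change of -0.45 (limma adjusted p = 0.0458) was called only without siDDX1 replicate 3 among the 6 fits without a library, with a limma adjusted p between 0.102 and 0.151 in the other 5. It was also lost with no filter on low FPKM (limma adjusted p = 0.0972), no intensity trend (limma adjusted p = 0.0579), quantile normalization (limma adjusted p = 0.0534) or centring on the median, the last by a narrow margin. No core factor, termination factor or tRNA splicing endonuclease subunit passed limma in siDDX1 cells, with 1, 0 and 1 decreased and 1, 0 and 0 increased at an unadjusted p under 0.05.

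**Figure D5:**
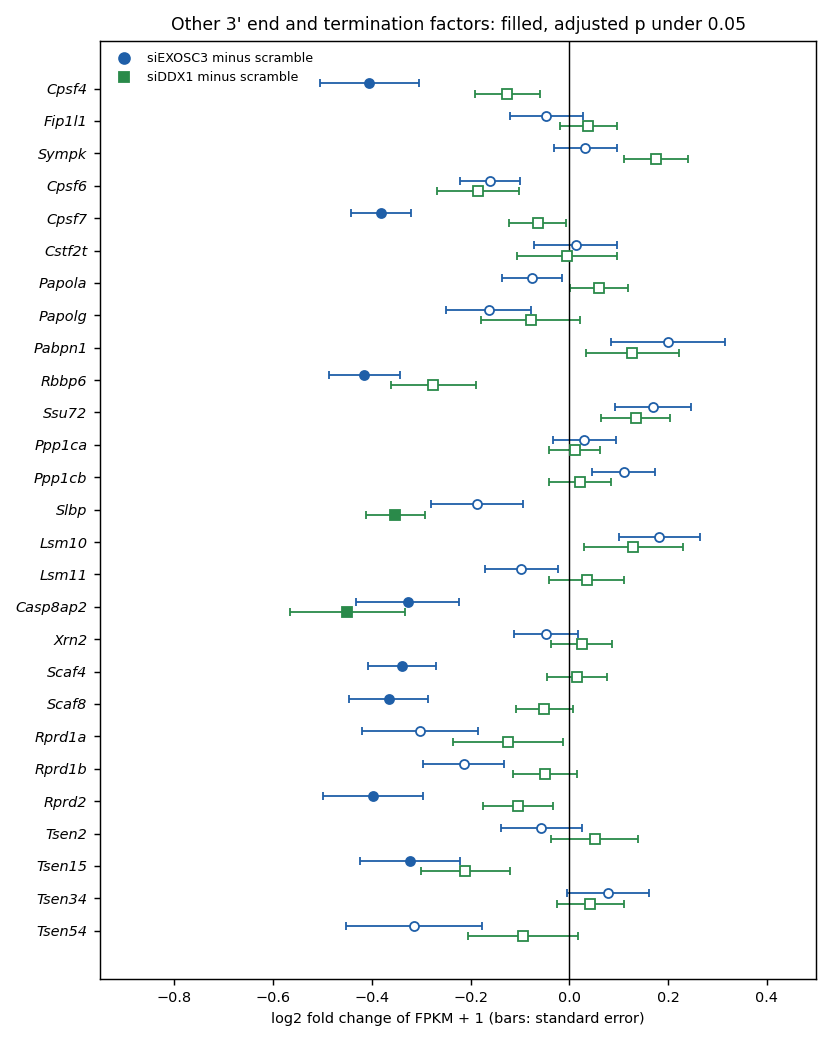
Log2 fold change of FPKM + 1 for the 27 other 3′ end, histone and termination factors in siEXOSC3 cells (blue circles) and siDDX1 cells (green squares), with standard errors. Filled symbols passed a limma adjusted p of 0.05, which 8 circles and 2 squares did, all of them below 0.

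Because strand was not kept in these libraries, a read in sequence that 2 genes on opposite strands share cannot be assigned to either. On NCBIM37 with GENCODE vM1, Clp1 spans 84562261 to 84567507 of chromosome 2 on the minus strand and Cstf1 172196181 to 172207948 of chromosome 2 on the plus strand. Cstf3 spans 104430680 to 104505586 of chromosome 2 on the plus strand, and Cstf2 130593726 to 130621358 of chromosome X on the plus strand. Nudt21 spans 96543303 to 96560939 of chromosome 8 and Pcf11 99792222 to 99818443 of chromosome 7, both on the minus strand. Cpsf2 spans 103214184 to 103244203 and Cpsf3 21292158 to 21320917 of chromosome 12, both on the plus strand, Cpsf1 76426239 to 76438021 of chromosome 15 on the minus strand, and Wdr33 31963711 to 32068641 of chromosome 18 on the plus strand. Cstf2 shares 399 exonic bases, 4.35% of its exonic length, with Nox1 on the opposite strand, and Nox1 was at 5.14 ± 0.436 FPKM in scramble and was not called in either depletion. Cpsf1 shares 8 exonic bases with Adck5, which rose in siEXOSC3 cells by a log2 fold change of 0.40 (limma adjusted p = 0.0150) and in siDDX1 cells by 0.37 (limma adjusted p = 0.0375).

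Close neighbours were listed after the data had been seen, as genes within 5000 bases. Cstf1 starts 146 bases from Aurka, a mitotic kinase gene that runs the other way. Aurka fell from 49.4 ± 2.17 to 26.4 ± 4.98 FPKM in siEXOSC3 cells (SD, n = 3, log2 fold change -0.90, limma adjusted p = 0.00242) and to 38.9 ± 0.775 FPKM from 48.9 ± 2.22 FPKM in siDDX1 cells (SD, n = 3, log2 fold change -0.32, limma adjusted p = 0.0152). Cstf1 was lower in the first and was not called in the second. Nudt21 starts 159 bases from Ogfod1 and Cpsf3 60 bases from Itgb1bp1, both on the opposite strand and neither called in either depletion. Downstream of Wdr33 by 107 bases lies Sft2d3 on the opposite strand, which fell in siDDX1 cells (log2 fold change -0.45, limma adjusted p = 0.0375), where Wdr33 was not called.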

How the data were processed

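RNA-seq of rRNA-depleted, nondirectional libraries covered 9 cultures of N2A cells. The authors aligned reads to mm9 with TopHat2 version 2.1.0, handled alignments with SAMtools, and ran Cuffdiff version 2.2.1, and they deposited FPKM per gene and library in 2 tables, 1 per knockdown, both holding the scramble columns. Which annotation and library normalization were used is not given in the sources used here. A scramble library has values 1.00782 to 1.01188 times as high in the siEXOSC3 table as in the other, so each test stayed within a table. Genes whose mean FPKM over a table reached 1 were fitted as log2(FPKM + 1) with lmFit and eBayes of limma (3.58.1, R 4.3.3), with an intensity trend and without covariates, and two-sided p-values were adjusted by Benjamini-Hochberg over all genes tested, calling those under 0.05. The added 1 shrinks the fold changes of low genes. Exact permutation tests used scipy version 1.17.1. The fit was tested on simulated data. P-values measure only the spread between these cultures.

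The members, the 4 further gene lists, the markers and the tests were chosen with earlier results of these data known. All members, the called genes of the other lists, Cstf2t and the gene most like each called member were named by rule. Of the genes first listed beside the members, 1 was left out and is not reported here. Alternatives were quantile normalization, median centring, a pseudocount of 0.1, a fit without trend or with a replicate block, a filter at 5 FPKM or none, and leaving out each library. The main fit did not pair samples by replicate number, and whether the numbers pair them was not tested. Gene positions and transcript ends came from GENCODE vM1 on NCBIM37, matched by symbol for 20775 of 24318 genes and all 10 members, and promoter windows from RefSeq on GRCm38.p6. No count model was used, since FPKM are not counts.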

Additional observations from a re-analysis of the deposited data

Results flagged for a closer look

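Cpsf1 moved in opposite directions in every library of the 2 depletions. All 3 siEXOSC3 libraries were below all 3 scramble libraries, with a log2 fold change of -0.0791, and all 3 siDDX1 libraries were above them, with a log2 fold change of 0.164. Neither value passed limma on its own (adjusted p = 0.345 and 0.191), both rest on the same 3 scramble cultures, and the difference was not tested. Of all genes tested, 25.9% lay entirely below scramble in siEXOSC3 cells and 17.0% entirely above in siDDX1 cells. The share of genes with both was not counted. Without siDDX1 replicate 1 the log2 fold change of Cpsf1 in siDDX1 cells was 0.0889.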

How the results depend on the processing

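The calls of Clp1 and Cstf1 in siEXOSC3 cells held under all 13 alternatives, and those of the other 3 called members did not. Of 130 alternatives for single members in siEXOSC3 cells 109 kept direction and side of the threshold, 14 lost and 2 gained a call and 5 changed sign. In siDDX1 cells these counts were 111, 7, 5 and 7. Without single libraries the number of changed members ranged from 2 to 5 in siEXOSC3 cells and from 0 to 3 in siDDX1 cells, and that of the other 27 factors from 4 to 11 and from 0 to 6. Leaving out siDDX1 replicate 3 gave the 3 members (2 lower, 1 higher) and the 6 other factors (5 lower, 1 higher), and 15.4% of all genes then decreased and 16.4% increased, while the 5 other fits gave 0 members with 0.522 to 2.11% of all genes decreased. The 5 members and 11 other factors came without siEXOSC3 replicate 2, with 22.3% of all genes decreased. In siDDX1 cells the number of members was 0 with no filter, 0 with no intensity trend and 2 with a mean FPKM of at least 5. Of all genes, 1.94, 4.43 and 5.81% then decreased. The number of other factors was 1 with no filter, quantile normalization, centring on the median or no intensity trend. After quantile normalization 5.16% of all genes decreased, and after centring 4.12%. The cause was not tested.

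Same-numbered libraries had correlations of their deviations of 0.03, -0.31 and -0.13 in the siEXOSC3 table and -0.01, 0.38 and 0.37 in the siDDX1 table. Crossing replicates 2 and 3 in the siDDX1 table gave -0.37 and -0.38. Whether the numbers pair the samples was not tested and is not settled by these values for the siDDX1 table. With the replicate block 4 members changed in siEXOSC3 cells, Cstf3 taking the place of Cpsf2, and 6 other factors, Casp8ap2 and Tsen15 losing their calls (limma adjusted p = 0.0786 and 0.0895), with 9.42% of all genes decreased. In siDDX1 cells the block gave 3 members, Clp1 and Cstf2 lower and Cpsf3 higher, and 2 other factors, with 7.28% of all genes decreased and 9.77% increased.

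Changes of sign were limited to values near 0. For Cpsf3 in siEXOSC3 cells the log2 fold change was 0.00123 after quantile normalization, 0.0177 after centring on the median, and -0.0411 to 0.0234 without single libraries. For Cstf2t it ranged from -0.0571 to 0.0714 in siEXOSC3 cells. In siDDX1 cells it was 0.0125 for Cstf3 and 0.0207 for Cstf2t after centring. Without single libraries it ranged there from -0.108 to 0.0652 for Cstf3, -0.119 to 0.0687 for Cstf2t, -0.0194 to 0.131 for Nudt21, -0.0521 to 0.0899 for Pcf11, and -0.00956 to 0.0439 for Scaf4. Centring moved the median over all genes tested to 0.01 in siEXOSC3 and 0.02 in siDDX1 cells. Without single libraries the difference in the log2 ratio of Cstf2 to Cstf2t ranged from -0.20 to -0.10 and from -0.35 to -0.23. Since FPKM does not hold the reads behind a value, no counting interval is given.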
